A study of Homo sapiens with 6 samples.

Results

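The genes described here are the homeobox genes outside the HOX clusters that belong to a set of developmental families, together with the paired-box (PAX) genes. The rule that picks them uses their names only (DLX, NKX, LHX, the sine oculis homologs, IRX, MSX, EMX, GSX, EN, OTX, PITX, PAX, MEIS, BARHL, BARX, ALX, VAX, PHOX2 and GBX), and 78 of the 53712 gene names in the count table matched. All libraries came from the established human embryonic stem cell line H9 kept in RSeT medium, which is sold for a naive-type pluripotent state. Both arms carried 10 nM DZNep, which blocks S-adenosylhomocysteine hydrolase, together with 5 nM of the histone deacetylase inhibitor TSA. For 48 h starting 24 h after passage, cells additionally received either UNC1999 (2.5 µM), which inhibits the enzymes EZH2 and EZH1, or UNC2400 (2.5 µM), an N-methylated analog of low activity. Each compound had 3 libraries, and cells without DZNep and TSA are not part of the comparison. The comparison asks which of these genes differed in RNA level between the inhibitor and its analog at the same dose and time.

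Homeobox proteins bind DNA through a homeodomain, and PAX proteins through a paired domain with or without a homeodomain. Both classes set regional and cell identity in the embryo, in the brain, eye, limb, heart and skeleton among other tissues. In pluripotent cells most of these genes are silent, and their CpG-rich promoters are textbook targets of Polycomb repressive complex 2 (PRC2), whose catalytic subunit EZH2 or EZH1 methylates lysine 27 of histone H3. OTX2 is an exception in that it is active in pluripotent cells, above all in those leaving the naive state.

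The promoter windows of a few members show what most of the set has in common in sequence. The window runs from 250 bases before to 50 bases after a gene's start in RefSeq, build GRCh38.p14, and 51 of the 78 members had one in the table used. Of these 51, 45 (88.2%) were CpG-rich, meaning a GC content of at least 50% and a ratio of observed to expected CpG of at least 0.6. The same held for 76.8% of the 11158 tested genes with a window and for 46.9% of all 27305 windows. The 4 windows below are shown because MSX2 had the largest rise among tested members, OTX2 and LHX6 nearly doubled, and LHX4 was the single member that fell. Each is 300 bases, 5′ to 3′ on the gene's strand, with every CpG in capitals. MSX2 lies at chr5:174724332-174724631 (plus strand), OTX2 at chr14:56810430-56810729 (minus), LHX6 at chr9:122228384-122228683 (minus) and LHX4 at chr1:180230014-180230313 (plus). For OTX2 and LHX6, which have several starts, the window listed first is shown. The counts of windows given here likewise used only the first window of each gene.
MSX2: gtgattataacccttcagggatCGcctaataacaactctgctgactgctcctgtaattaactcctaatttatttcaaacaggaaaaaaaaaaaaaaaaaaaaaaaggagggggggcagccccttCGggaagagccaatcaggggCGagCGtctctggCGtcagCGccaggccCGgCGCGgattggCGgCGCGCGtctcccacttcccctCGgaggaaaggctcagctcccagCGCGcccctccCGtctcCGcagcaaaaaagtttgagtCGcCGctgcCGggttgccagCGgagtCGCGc
OTX2: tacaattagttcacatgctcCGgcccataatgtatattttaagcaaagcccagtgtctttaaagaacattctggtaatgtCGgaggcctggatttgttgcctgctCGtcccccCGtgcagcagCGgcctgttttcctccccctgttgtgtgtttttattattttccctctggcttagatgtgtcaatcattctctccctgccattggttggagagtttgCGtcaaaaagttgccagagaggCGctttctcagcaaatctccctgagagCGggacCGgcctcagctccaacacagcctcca
LHX6: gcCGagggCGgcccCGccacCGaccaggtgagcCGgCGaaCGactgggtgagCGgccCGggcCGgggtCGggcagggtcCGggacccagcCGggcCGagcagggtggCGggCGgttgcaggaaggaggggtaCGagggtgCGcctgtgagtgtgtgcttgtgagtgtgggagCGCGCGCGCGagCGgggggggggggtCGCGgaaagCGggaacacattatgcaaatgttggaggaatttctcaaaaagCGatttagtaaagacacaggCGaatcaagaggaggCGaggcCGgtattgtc
LHX4: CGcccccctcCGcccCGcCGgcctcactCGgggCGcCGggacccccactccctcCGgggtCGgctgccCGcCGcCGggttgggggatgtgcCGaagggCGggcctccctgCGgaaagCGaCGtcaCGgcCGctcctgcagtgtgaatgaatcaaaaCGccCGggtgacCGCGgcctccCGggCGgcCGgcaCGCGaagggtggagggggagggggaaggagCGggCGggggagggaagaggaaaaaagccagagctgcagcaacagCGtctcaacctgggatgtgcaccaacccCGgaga
The MSX2, LHX6 and LHX4 windows shown held 24, 31 and 32 CpGs, with observed-to-expected ratios of 0.987, 1.04 and 0.812. The later LHX6 windows held 16 and 7 CpGs, with ratios of 0.725 and 0.294, so the last of them was not CpG-rich. Which start is used in these cells was not tested. The OTX2 window shown held 9, with a ratio of 0.493 and a GC content of 49.7%, and so was not CpG-rich. Nor was the other OTX2 window (6 CpGs, ratio 0.353). Of the 17 members that rose 10 had a window, and 9 of these 10 were CpG-rich, as were 12 of 14 of those tested that did not pass, and 23 of 26 of those too low to test. A difference between these groups was not tested. The hexamer TATAAA, searched on both strands, was present in 2 of the 51 windows (3.92%) in 5.96% of those of tested genes and in 3264 of all 27305 windows. TAATCC, the site preferred by OTX and PITX homeodomains, also searched on both strands, was present in 2 of 51 (3.92%), in 4.33% of those of tested genes and in 6.39% of all. The motifs were counted separately, and a match is only a run of letters.

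Most members were rare or undetected. Total counts were 29699441 to 42345448 per library, so that a count of 0 allows up to 0.0708 to 0.101 counts per 1000000 counted reads (CPM). Total counts and the number of genes detected showed no difference by treatment (two-sided exact permutation test, p = 1 and 0.8; 3 against 3 libraries cannot go below 0.1). Of the 78 members, 7 had 0 counts in all 6 libraries: BARHL1, BARHL2, GSX1, NKX2-8, PAX1, VAX1 and VAX2. A further 16 had 1 to 10 counts over all libraries together. Only 16 reached a mean of 1 CPM in UNC2400 and 20 in UNC1999, and 5 reached 10 CPM over all libraries, SIX4, IRX2, OTX2 and MEIS3 among them. The summed level of all 78 was 170, 160 and 159 CPM in UNC2400 replicates 1 to 3 and 225, 259 and 245 CPM in UNC1999 replicates 1 to 3. In bulk RNA, fewer cells of a type and less RNA per cell cannot be told apart.

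Markers of pluripotency were abundant, and some markers of other lineages were also measured. All 10 pluripotency markers checked were well expressed, of which 5 fell, 1 rose and 4 did not pass. POU5F1 fell from 1393 ± 29.2 to 1024 ± 80.8 CPM and NANOG from 113 ± 3.45 to 103 ± 2.16 CPM, and SOX2 stood at 455 ± 20.4 and 452 ± 23.6 CPM (SD, n = 3 each). Their summed level was 9145 to 9308 CPM in UNC2400 and 6783 to 7727 CPM in UNC1999. The 10 naive markers summed to 224 to 235 CPM in UNC2400 and 233 to 262 CPM in UNC1999, and 6 rose and 2 fell. Of these 10, 8 were tested, and all 8 passed the threshold. The 2 below the filter were KLF17 and ARGFX, which are typical of naive cells, at 0.148 and 0.394 CPM (KLF17) and 0.197 and 0.116 CPM (ARGFX). Neural markers summed to 397 to 413 CPM in UNC2400 and 378 to 403 CPM in UNC1999. Of 14 listed, 9 were tested, with 1 higher and 4 lower, and SOX1, NEUROG1, NEUROG2 and NEUROD1 stayed below 0.08 CPM. Neural crest markers summed to 285 to 289 and 282 to 291 CPM. Of 8 listed, 5 were tested, with 3 higher and 2 lower, and TFAP2B, TFAP2A and SNAI2 were below 0.2 CPM. SOX10 went from 3.07 ± 0.51 to 6.21 ± 0.501 CPM and FOXD3 from 10.5 ± 0.537 to 5.54 ± 0.708 CPM (SD, n = 3 each). Mesoderm markers summed to 101 to 113 and 83.5 to 90.7 CPM, with 5 of 10 tested, 2 of them higher and 1 lower. Amnion and trophoblast markers summed to 53.9 to 56.7 and 56.0 to 58.1 CPM, with none of the 4 tested past the threshold and CGB at 0. Fibroblast markers summed to 253 to 275 and 175 to 184 CPM, with 4 of 6 tested, 1 of them higher and 3 lower. Endoderm markers summed to at most 3.35 CPM, surface ectoderm markers to at most 2.51 CPM and muscle markers to at most 0.671 CPM in any library. Over all tested genes 26.8% were higher and 25.9% lower, and these marker lists are too short to set against those shares. The part of any such cells in the results below was not tested.

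More members rose than fell. Of the 35 members expressed enough to be tested, 17 rose in UNC1999, 1 fell and 17 did not pass an adjusted p of 0.05 (edgeR's quasi-likelihood test, adjusted over all 17596 genes tested). Over all tested genes, 26.8% rose and 25.9% fell. The 18 of 35 past the threshold in either direction stand near the 52.7% of all genes, so the share called was close to the background, and the split between higher and lower was not even (17 to 1). Of the 17 that rose, 9 did so by more than 2-fold. The median log2 fold change was 0.51 over the tested members and 0.02 over all tested genes. These counts are partly set by the low-count filter, which asks for about 0.297 CPM in 3 libraries. For 8 tested members all UNC1999 libraries but fewer than 3 UNC2400 libraries reached that level, and 6 of the 8 rose (DLX3, IRX5, MSX2, NKX3-2, PITX3 and SIX2). The reverse held for 2 members. With a filter on the mean of all 6 libraries, which is blind to the groups, 23 members were tested, of which 12 rose and 1 fell, against 28.6% and 28.1% of all genes. By level, 8 of 18 tested members with a mean under 1 CPM rose and none fell (12.4% and 8.59% of all such genes). Between 1 and 10 CPM it was 5 of 12 and 1 (27.1% and 20.4%), and above 10 CPM 4 of 5 and none (31.1% and 33.9%). All 17 that rose had every UNC1999 library above every UNC2400 library, a pattern seen in 20 of the 35 and in 30.9% of all tested genes. The reverse pattern was seen in 1 of the 35, LHX4, and in 29.7% of all. UNC1999 replicate 1 was the lowest of its group in 13 of these 17. That count was not made over all genes that rose, so it cannot be called particular to the members. With length and GC offsets 13 members rose and 3 fell (23.7% and 24.6% of all genes), and with the replicate number as a block besides 14 and 5 (24.3% and 25.4%). The block alone gave 17 and 1 (27.7% and 26.7%), and DESeq2 13 and 1 (23.1% and 24.4%). Nothing in the labels says that the replicates of a compound were grown apart, and the p-values cover only the spread among these libraries, which may be technical.

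**Figure D1:**
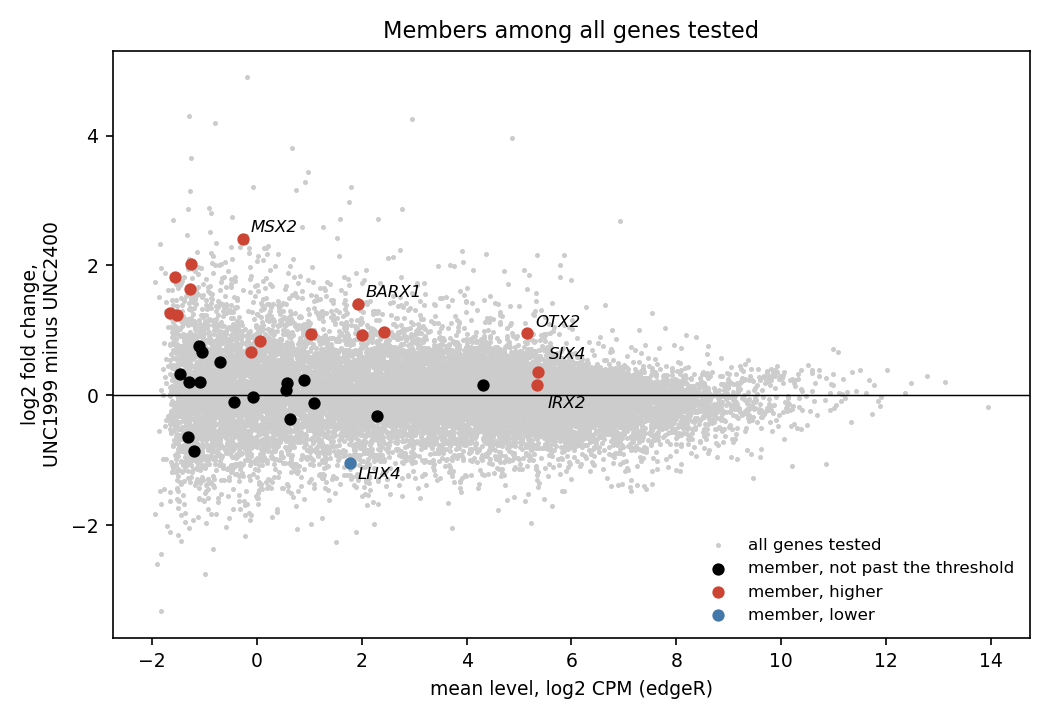
Log2 fold change (UNC1999 minus UNC2400) against mean level (log2 CPM) for all 17596 tested genes in grey, with 33 tested members in red (higher), blue (lower) and black (not past the threshold). The members lie mostly at the low end of the range, and 1 of them, LHX4, is blue.

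PITX genes encode paired-type homeodomain factors. PITX3, which acts in the lens and in midbrain dopamine neurons, read 0.312, 0.0958 and 0.133 CPM in UNC2400 and 0.435, 0.767 and 0.413 CPM in UNC1999. It rose by 1.64 ± 0.47 on the log2 scale (adjusted p = 0.0073), from 17 summed counts to 56. Without UNC2400 replicate 2 or UNC1999 replicate 2 it did not pass (adjusted p = 0.0611 and 0.0534). The hindlimb factor gene PITX1 was below the filter, with counts of 2, 1 and 1 in UNC2400 and 8, 17 and 9 in UNC1999. Per depth, UNC1999 held 8.58 times the PITX1 counts of UNC2400 (exact 95% counting interval 3.06 to 33.3). Such intervals cover counting error only, since they use summed counts and leave out the spread between libraries. They also take counts as separate molecules, which any PCR copies left without molecular identifiers would not be.

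OTX genes pattern the forebrain and midbrain, and OTX2 is also active in pluripotent cells as they leave the naive state. OTX2 read 26.1, 24.5 and 21.6 CPM in UNC2400 and 42.6, 49.4 and 48.5 CPM in UNC1999. The groups were far apart relative to the spread within each. Its fold change was 1.94 (log2 0.96 ± 0.07, SE; adjusted p = 3.19e-08), and 0.70 on the log2 scale once trends with gene length and GC content were removed. OTX1 read 0.903, 0.551 and 0.696 CPM in UNC2400 and 0.958, 1.19 and 1.62 CPM in UNC1999, groups that nearly touch. It rose by 0.83 ± 0.29 (log2, SE; adjusted p = 0.0209). The call ended without UNC2400 replicate 2 (adjusted p = 0.111), UNC2400 replicate 3 (0.0525) or UNC1999 replicate 3 (0.141), and with the length and GC offsets (0.0544) or the offsets and the block (0.0532).

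Per kilobase of exon, OTX2 and IRX2 were the highest of the members described here. In UNC2400, IRX2 stood first at 11.3 ± 0.392 CPM per kb, with OTX2 at 7.36 ± 0.688, SIX4 at 5.41 ± 0.205 and MEIS3 at 3.66 ± 0.185 (SD, n = 3 each). In UNC1999, OTX2 was at 14.3 ± 1.13 and IRX2 at 12.6 ± 0.832 CPM per kb (SD, n = 3 each), and their libraries overlapped. SIX4 was at 6.94 ± 0.252 and MEIS3 at 4.10 ± 0.0846 CPM per kb (SD, n = 3 each). Exon lengths were the joined exons of all transcripts in GENCODE 29 and may differ from those used for counting.

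MSX, BARX, ALX and DLX genes act in neural crest, craniofacial and limb development. MSX2, a repressor downstream of BMP signals, read 0.243, 0.168 and 0.331 CPM in UNC2400 and 1.13, 1.42 and 1.33 CPM in UNC1999. All UNC1999 libraries held at least 39 counts and no UNC2400 library more than 10. The rise was 5.32-fold (log2 2.41 ± 0.32, SE; adjusted p = 9.77e-06). Its processed copy MSX2P1 moved alike, from 0.154 ± 0.0449 to 0.609 ± 0.0689 CPM (SD, n = 3 each; log2 1.92 ± 0.39). How reads matching both were counted is not given in the sources used here, so the 2 genes cannot be taken as separate measurements. MSX1 was below the filter (14 counts in UNC2400 and 22 in UNC1999; counting interval of the ratio 0.776 to 3.35).

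BARX1, a gene of stomach and tooth mesenchyme, read 2.22, 2.04 and 1.89 CPM in UNC2400 and 4.47, 6.08 and 5.75 CPM in UNC1999. Every UNC1999 value was about double the highest UNC2400 value or more. It rose by 1.41 ± 0.16 (log2, SE; adjusted p = 1.49e-06). Its paralog BARX2, below the filter, held 9 counts in UNC2400 and 36 in UNC1999 (ratio 4.04, counting interval 1.91 to 9.53). ALX1, which acts in the frontonasal skeleton, read 2.99, 2.37 and 2.85 CPM in UNC2400 and 4.35, 5.34 and 5.87 CPM in UNC1999. The groups did not overlap, and the rise was 0.93 ± 0.15 (log2, SE; adjusted p = 7.37e-05). ALX4 had 4 and 6 counts.

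DLX3, a gene of epidermis, placenta and tooth, read 0.104, 0.0958 and 0.232 CPM in UNC2400 and 0.319, 0.597 and 0.825 CPM in UNC1999. It rose by 2.02 ± 0.48 (log2, SE; adjusted p = 0.00209) from 14 counts to 60. DLX4, its direct neighbour on chromosome 17, did not: its counts were 91 and 92 and its log2 fold change -0.02 (95% interval -0.55 to 0.52). On chromosome 2, DLX2 had counts of 1, 0 and 0 in UNC2400 and 1, 15 and 9 in UNC1999. The ratio was 25.2 (counting interval 4.13 to 1036). The adjacent DLX1 had no counts in UNC2400 and 2, 1 and 2 in UNC1999, and the counting interval of its ratio reached down to 0.925, so no difference was detectable at this depth. UNC1999 replicates 2 and 3 carried nearly all DLX2 counts, and replicate 1 was no higher than UNC2400 replicate 1.

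**Figure D2:**
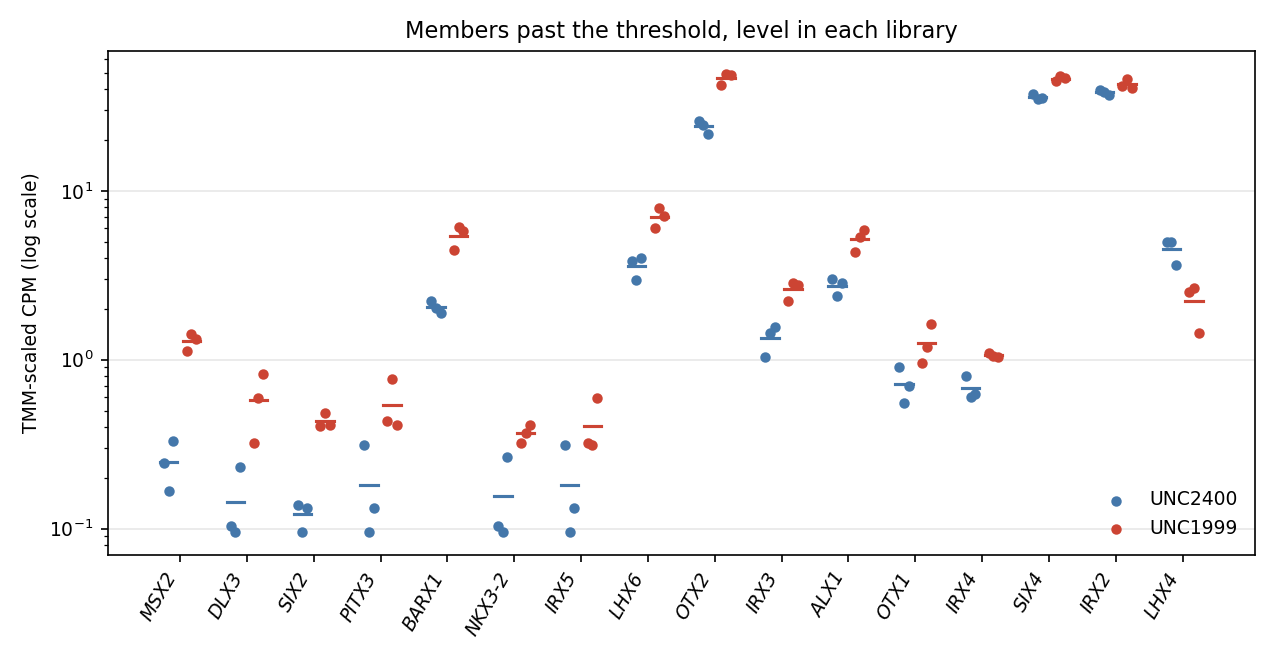
Level in each library (TMM-scaled CPM, log axis) of 16 members past the threshold, ordered by fold change, with UNC2400 in blue, UNC1999 in red and group means as short lines. The groups do not overlap for any of the 16, though those of IRX5 and OTX1 nearly touch, and OTX2, SIX4 and IRX2 stand above 20 CPM in all libraries.

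The IRX genes, three-amino-acid-loop homeobox genes of heart, limb and neural patterning, lie in clusters on chromosomes 5 and 16. In the chromosome 16 cluster IRX3 read 1.04, 1.44 and 1.56 CPM in UNC2400 and 2.23, 2.84 and 2.77 CPM in UNC1999. It rose by 0.95 ± 0.20 (log2, SE; adjusted p = 0.000725). Next to it, IRX5 read 0.312, 0.0958 and 0.133 CPM in UNC2400 and 0.319, 0.313 and 0.589 CPM in UNC1999, groups that nearly touch. It rose by 1.23 ± 0.49 (adjusted p = 0.044) from 17 counts to 42. That call ended without UNC2400 replicate 2 (adjusted p = 0.22), UNC2400 replicate 3 (0.135) or UNC1999 replicate 3 (0.233), and with DESeq2 (0.115), no low-count filter (0.0665), the length and GC offsets (0.0924) and the offsets with the block (0.0898). The last gene of the cluster, IRX6, was below the filter, with counts of 0, 0 and 4 in UNC2400 and 6, 23 and 23 in UNC1999. Its ratio was 13.1 (counting interval 4.83 to 49.96). So all 3 genes of this cluster had more counts in UNC1999, IRX6 least in replicate 1.

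On chromosome 5, IRX2 was the most abundant IRX gene in counts, with 39.5, 38.7 and 36.9 CPM in UNC2400 and 41.7, 46.0 and 40.7 CPM in UNC1999. It rose by 0.16 ± 0.06 (log2, SE; adjusted p = 0.0348), a small step. With the length and GC offsets its log2 fold change was -0.04 (adjusted p = 0.59), so its direction depends on that choice. The call also ended without UNC2400 replicate 1 (adjusted p = 0.0549), replicate 2 (0.0827) or replicate 3 (0.154), and without UNC1999 replicate 2, where the log2 fold change was 0.10 (adjusted p = 0.211). It ended too with DESeq2 (adjusted p = 0.086) and when low counts were not filtered (0.122). IRX4, a ventricle factor, rose by 0.66 ± 0.26 (adjusted p = 0.0406), from 0.676 ± 0.108 to 1.06 ± 0.0366 CPM (SD, n = 3 each, edgeR). It did not pass without any one of UNC2400 replicates 2 and 3 and UNC1999 replicates 1, 2 and 3 (adjusted p = 0.0723 to 0.149), nor with DESeq2 (0.113), no low-count filter (0.0805), the length and GC offsets (0.0865) or the offsets and the block (0.0922). IRX1 had 72 and 68 counts (log2 fold change -0.11, 95% interval -0.71 to 0.49).

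The sine oculis homologs work with EYA and DACH cofactors in eye, ear, muscle and kidney development. SIX4 had the most counts of all members over the 6 libraries together, though IRX2 had more in UNC2400 and OTX2 more in UNC1999. SIX4 read 37.6, 35.1 and 35.3 CPM in UNC2400 and 44.4, 47.7 and 46.5 CPM in UNC1999. It rose by 0.36 ± 0.06 (log2, SE; adjusted p = 4.47e-05), and by 0.21 with the length and GC offsets. SIX6, also on chromosome 14, was below the filter with 12 and 12 counts. SIX2, which maintains kidney progenitors, read 0.139, 0.0958 and 0.133 CPM in UNC2400 and 0.406, 0.483 and 0.413 CPM in UNC1999. All 3 UNC1999 libraries stood clear of UNC2400, and SIX2 rose by 1.83 ± 0.44 (log2, SE; adjusted p = 0.00206). SIX3, adjacent to SIX2 and a forebrain and eye factor, had 42 and 28 counts (log2 fold change -0.64, 95% interval -1.55 to 0.27). The intervals of SIX2 and SIX3 do not meet, though the difference between the 2 genes was not tested. SIX5 read 4.76, 5.20 and 6.16 CPM in UNC2400 and 5.02, 4.24 and 3.68 CPM in UNC1999 (log2 -0.32, adjusted p = 0.0727).

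Among NKX genes, 2 of 5 tested members rose and none fell, too few to set against the 26.8% and 25.9% of all tested genes. NKX3-2, a factor of cartilage and stomach, rose by 1.27 ± 0.47 (adjusted p = 0.0318) from 15 counts to 38. The NKX3-2 call ended without UNC2400 replicate 1 (adjusted p = 0.119), UNC2400 replicate 2 (0.168), UNC1999 replicate 2 (0.0669) or UNC1999 replicate 3 (0.099). It also ended with DESeq2 (adjusted p = 0.109), without a filter on counts (0.0766), with the length and GC offsets (0.0632) and with the offsets and the block (0.0595). NKX1-2, NKX6-1 and NKX2-4 had log2 fold changes of -0.12, 0.19 and -0.86, of which NKX2-4 came closest to the threshold (adjusted p = 0.0857). The other 9 NKX genes were below the filter, and the heart factor gene NKX2-5 had 1 and 7 counts.

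LHX genes encode LIM-homeodomain factors of neurons and glands. LHX6, which specifies cortical interneurons, read 3.85, 2.95 and 4.01 CPM in UNC2400 and 6.01, 7.87 and 7.07 CPM in UNC1999. It rose 1.96-fold (log2 0.97 ± 0.14, SE; adjusted p = 2.69e-05). LHX4, a factor of the pituitary and of motor neurons, was the single member past the threshold as lower. It read 4.96, 5.01 and 3.65 CPM in UNC2400 and 2.52, 2.67 and 1.44 CPM in UNC1999, with no overlap. It fell by 1.04 ± 0.20 (log2, SE; adjusted p = 0.000309), and by 0.83 to 1.20 when any one library was left out. Of its joined exon length in GENCODE 29, 30.8% overlaps exons of ACBD6 on the opposite strand. ACBD6 is the more abundant gene, at 50.4 CPM in UNC2400 and 35.9 CPM in UNC1999, and fell by 0.49 ± 0.06 (log2, SE; adjusted p = 5.54e-06). The libraries mark strand, but the strand setting of the counting is not given in the sources used here, so shared reads cannot be told apart. LHX2 did not pass, and the other 5 LHX genes were below the filter, LHX5 with 19 and 36 counts (counting interval of the ratio 1.07 to 3.53) and LHX8 with 22 and 18.

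**Figure D3:**
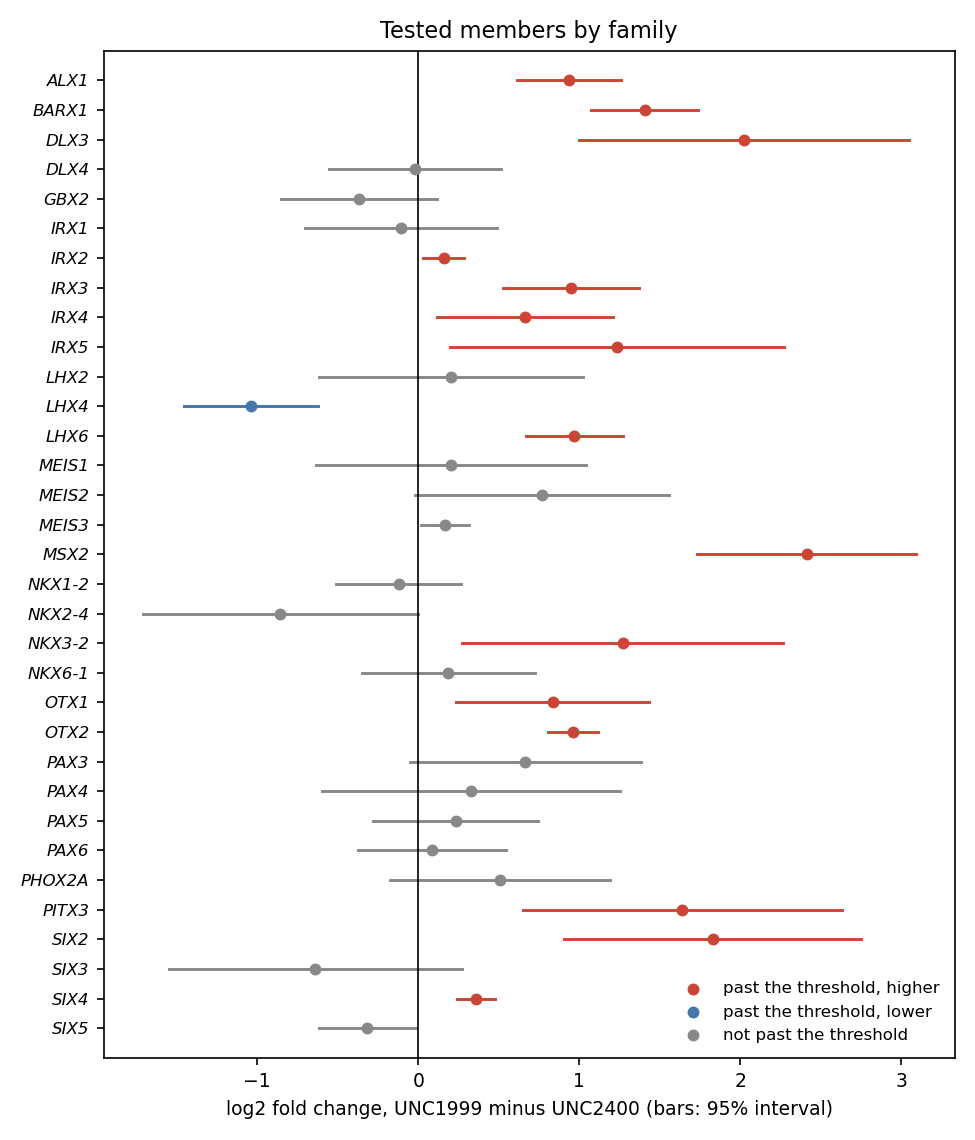
Log2 fold change (UNC1999 minus UNC2400) of 33 tested members, grouped by family, with 95% intervals as bars. Red marks 15 that rose, blue LHX4, which fell, and grey the 17 that did not pass, with all tested PAX and MEIS genes among the grey.

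In the PAX and MEIS families no tested member passed the threshold in the main fit. MEIS3, MEIS2 and PAX5 did so under some alternatives, MEIS3 under 4 of 16. PAX5 passed with the length and GC offsets together with the replicate block (edgeR, log2 0.55, adjusted p = 0.0487). Of 9 PAX genes 4 were tested, with log2 fold changes of 0.67 for PAX3 (95% interval -0.05 to 1.38), 0.33 for PAX4 (-0.60 to 1.25), 0.23 for PAX5 (-0.28 to 0.75) and 0.09 for PAX6 (-0.37 to 0.55). PAX6, the eye and forebrain regulator, read 1.49, 1.48 and 1.09 CPM in UNC2400 and 1.33, 1.68 and 1.33 CPM in UNC1999, and the groups overlapped. A rise as large as that of OTX2 (0.96) lies outside the intervals of PAX5 and PAX6 and inside those of PAX3 and PAX4. PAX6 shares 25.2% of its joined exon length with ELP4 on the opposite strand, and ELP4 fell by 0.41 ± 0.08 (log2, SE; adjusted p = 0.000652). PAX9, a factor of thymus and tooth, was below the filter with counts of 4, 15 and 10 in UNC2400 and 3, 7 and 2 in UNC1999 (ratio 0.418, counting interval 0.194 to 0.844). It overlaps SLC25A21 on the opposite strand over 7.97% of its exon length, and SLC25A21 fell by 1.98 ± 0.24 (log2, SE). PAX8, a thyroid and kidney factor, had 6 and 24 counts (ratio 4.04, counting interval 1.61 to 12.1).

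MEIS proteins, partners of HOX and PBX factors, were represented mainly by MEIS3. MEIS3 read 19.8, 18.2 and 18.2 CPM in UNC2400 and 20.6, 21.5 and 20.9 CPM in UNC1999. The groups did not overlap, but the log2 fold change of 0.17 ± 0.07 (SE) missed the threshold (adjusted p = 0.0527) and passed in 4 of 16 alternatives. Its processed copies MEIS3P1 and MEIS3P2 rose by 0.96 ± 0.16 and 1.01 ± 0.12 (log2, SE), so any reads shared with them would make the MEIS3 value uncertain. MEIS1 and MEIS2 were below 0.6 CPM in mean in both groups and did not pass (MEIS2 log2 0.77, adjusted p = 0.0955). With the length and GC offsets MEIS2 passed as higher (log2 1.05, adjusted p = 0.0241), and likewise with the offsets and the block (1.02, adjusted p = 0.0273). PHOX2A, GBX2, DLX4 and LHX2 likewise did not pass, and EMX, EN, GSX, BARHL and VAX had no tested member. EN2 had counts of 1, 0 and 5 in UNC2400 and none in UNC1999, so that UNC2400 replicate 3 held most of them.

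**Figure D4:**
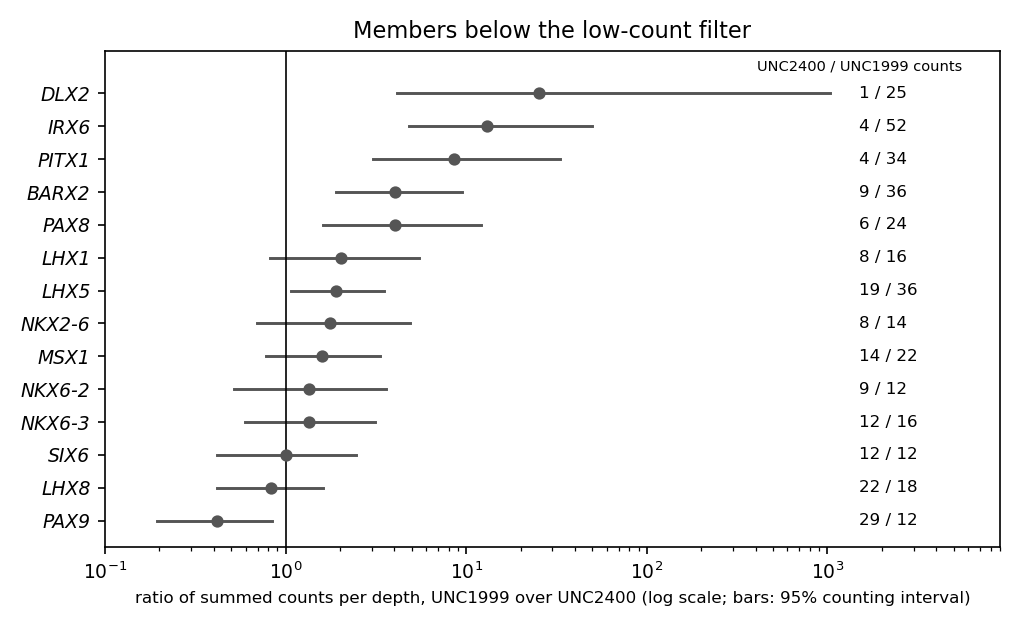
Ratio of summed counts per depth (UNC1999 over UNC2400, log axis) with 95% counting intervals for 14 members below the filter that had at least 20 counts and were detected in both groups. The intervals of DLX2, IRX6, PITX1, PAX8, BARX2 and LHX5 lie above 1, and that of PAX9 lies below 1.

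Of the 43 members below the filter, 28 had more counts per depth in UNC1999 and 8 fewer. The counting interval lay above 1 for 9 of them and below 1 for 2, without regard to the spread between libraries. The same counts were not made over all genes below the filter, so neither split can be set against a background. When all genes with at least 1 count were fitted, IRX6, PITX1, DLX2 and BARX2 passed as higher (edgeR, log2 3.51, 2.90, 4.14 and 1.89; adjusted p = 7.16e-07, 0.000658, 0.000696 and 0.0107). In that fit 17 of 71 members rose and 2 fell, against 11.9% and 12.7% of all genes. The authors' deposited table lists 49 members, 18 higher and 1 lower at an adjusted p below 0.05, against 21.3% and 22.7% of all its genes. Of the calls made here, 14 have the same sign and pass in the authors' deposited table. The other 4 were IRX2, IRX4, IRX5 and NKX3-2, each with an adjusted p of 0.0554 to 0.069 in the authors' deposited table. In turn, BARX2, DLX2, IRX6, PAX8 and PITX1 passed as higher in the authors' deposited table only, since they were below the filter here.

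Position in the genome gave mixed pictures. In RefSeq order, 29 members fall into 12 groups in which at most 5 other coding genes lie between one member and the next. The IRX3, IRX5 and IRX6 group had more counts in UNC1999 throughout. So did other groups, among them DLX1 with DLX2, DLX5 with DLX6 and NKX2-5 with MSX2, mostly at very few counts. In further groups a member that rose lay beside one that did not pass, as SIX2 beside SIX3, DLX3 beside DLX4 and IRX2 beside IRX1. The 95% interval of IRX1 (-0.71 to 0.49) includes the IRX2 log2 fold change of 0.16, so no difference was seen within that last pair. All 9 antisense or divergent transcripts named after members (OTX2-AS1 and SIX3-AS1 among them) were below the filter, with at most 7 counts in any library.

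Of 29 cofactors of these factors listed, 28 were tested, of which 5 rose and 11 fell, where 26.8% and 25.9% of all tested genes did. Their median log2 fold change was -0.12. LDB2, which bridges LIM-homeodomain proteins, fell from 65.8 ± 3.04 to 28.0 ± 6.27 CPM (SD, n = 3 each; log2 -1.23 ± 0.10, SE). SSBP3, which stabilises LDB complexes, fell by 0.51 ± 0.06, and PBX2 rose by 0.36 ± 0.05 (log2, SE). Other homeobox genes outside the HOX clusters went both ways: of 110 listed, 60 were tested, with 16 higher, 15 lower and a median of -0.03, close to the shares over all tested genes. Among these CUX1 fell by 0.73 ± 0.07, and CDX4 and TSHZ3 rose by 0.59 ± 0.07 and 0.55 ± 0.07 (log2, SE). Whether the members differ from these lists was not tested. EZH2 itself fell by 0.33 ± 0.05 (log2, SE; adjusted p = 5.46e-05), and EZH1 did not pass (-0.12, 95% interval -0.30 to 0.05).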

How the data were processed

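RNA from 3 libraries per compound (200 ng each, poly(A)-selected, strand-marking kit, per the labels' protocols) was counted per gene name. The deposited counts are whole numbers without normalization; the authors marked the table as having duplicates removed. Per the submitters' processing notes, the build was hg19 and the tools were TopHat2 2.0.13, Trim Galore 0.4.0, Subread 1.5.0 and featureCounts. The sources used here do not give the counting annotation, the strand setting or how multiply matching reads were counted. The authors' deposited comparison table holds p-values, test scores and log2 fold changes, per the file headers. The deposited log2 values, marked as batch-corrected, were not used.

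Counts were tested by the two-sided quasi-likelihood test of edgeR 4.0.16 under R 4.3.3 (TMM scaling, group only, default low-count filter on group, Benjamini-Hochberg over 17596 genes, threshold 0.05), tested first on simulated data. SEs were the log2 fold change divided by the square root of F. Counting intervals are exact binomial 95% intervals of summed counts. Libraries of a group differed by more than sampling noise. Alternatives used RLE and upper-quartile scaling, other filters, DESeq2 1.42.0, limma-voom (limma 3.58.1), a replicate block, length and GC offsets (GENCODE 29, found for 84.3% of tested genes) and each library left out.

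The members were picked by a rule on gene names, but that rule and the lists were drawn up with earlier results of these data known. The rule for naming took every member past the threshold, those tested with a mean of at least 5 CPM, and the 6 below the filter with most counts. From the cofactor and other homeobox lists it took up to 4 genes with the smallest p. Other members, ACBD6, ELP4 and SLC25A21 were named after their values were seen. Homeodomain residues were not analysed here. A few genes that these rules or lists include are counted in totals but not reported here by name or drawn as members.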

Additional observations from a re-analysis of the deposited data

How the results depend on the processing

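Under the 16 alternatives 12 to 18 members were past the threshold as higher, against 17. The calls of ALX1, BARX1, DLX3, IRX3, LHX4, LHX6, MSX2, OTX2, SIX2 and SIX4 held in every alternative that tested them. DLX3 and SIX2 were tested in only 14, because the filter blind to group and the stricter filter, which also ignores the groups, left them out. The number lower went from 1 to 2 with no low-count filter (SIX5 was added), to 3 with length and GC offsets (SIX5 and NKX2-4) and to 5 with the offsets and the replicate block together (GBX2 and SIX3 besides), and was 1 to 2 when 1 library was left out. PAX9 was added without UNC2400 replicate 1 (adjusted p = 0.04) or UNC1999 replicate 2 (0.0298), and SIX5 without UNC1999 replicate 1 (0.00548). With the filter blind to group the members' median log2 fold change was 0.36 instead of 0.51. IRX2 reversed to -0.0403 with the offsets and to -0.0403 with the offsets and the replicate block. With DESeq2 13 members rose and 1 fell. The replicate block alone gave 17 higher and 1 lower. Deviations of same-numbered libraries correlated at 0.0237, 0.0839 and 0.124 for replicates 1, 2 and 3. UNC2400 replicates 2 and 3 each correlated best with the same-numbered UNC1999 library, and UNC2400 replicate 1 with UNC1999 replicate 2 (0.0618). Genes detected in replicates 1 to 3 were 26918, 29385 and 26413 in UNC2400 and 26865, 29527 and 26730 in UNC1999. The main test used group only, and whether same-numbered libraries form pairs was not tested. MEIS2 was gained as higher with the offsets, and MEIS2 and PAX5 with the offsets and the block. MEIS3 was gained with upper-quartile scaling, the stricter filter and limma-voom, and without UNC2400 replicate 1. Depth limits the 43 members below the filter.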
